A study of Homo sapiens with 6 samples.

Results

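The respiratory chain genes described here were the protein-coding genes whose symbols begin with NDUFA, NDUFB, NDUFC, NDUFS, NDUFV, UQCR, ATP5 or COX4 to COX8, together with SDHA to SDHD, CYC1 and CYCS. This rule by symbol took in 100 of the 61541 genes in the count table, and 88 of the 100 reached the level needed for a test, a mean over the 6 libraries of 1 CPM (the count scaled to library size). The data were RNA sequencing counts from A498, an established human line labelled as renal clear cell carcinoma, in 3 libraries carrying a short hairpin RNA against RNF26 (shRNF26) and 3 carrying a control hairpin (shcontrol). RNF26 is an E3 ubiquitin ligase of the endoplasmic reticulum membrane. All 6 libraries came from cells in RPMI-1640 medium with added fetal bovine serum, and the labels give the delivery of the hairpin as transfection and infection. No source used here gives the hairpin sequence, the time after delivery or whether the replicates were separate cultures, so p-values measure the spread between these libraries, which may be technical.

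The respiratory chain sits in the inner mitochondrial membrane. Complex I (NADH dehydrogenase) and complex II (succinate dehydrogenase) pass electrons to ubiquinone, complex III passes them on to the mobile protein cytochrome c, and complex IV passes them to oxygen. The proton gradient that complexes I, III and IV build drives complex V, the ATP synthase. Most subunits are encoded in the nucleus, whereas a few membrane subunits of complexes I, III, IV and V are encoded by mitochondrial DNA. Core subunits carry the conserved redox or catalytic framework, and accessory subunits surround it. In complex III the core class used here also holds UQCRC1 and UQCRC2, named core proteins, although they carry no electrons.

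The libraries held 17202935, 17824141 and 16682871 counts in shRNF26 and 18021718, 16923786 and 16915790 counts in shcontrol. RNF26 itself had 1216, 1274 and 1175 counts in shRNF26, against 35331, 31901 and 31928 counts in shcontrol, a log2 fold change of -4.84 (standard error, SE, 0.040; adjusted p = 4.3e-24 by edgeR's quasi-likelihood test). Of 18 markers of kidney and clear cell carcinoma, 13 lay below 1 CPM, among them CA9 and the respiratory chain member NDUFA4L2. The other 5 went both ways: by edgeR ANGPTL4 (-2.75, adjusted p = 2.9e-10) and VIM (-1.37, adjusted p = 9.1e-12) fell on the log2 scale, MME (0.40, adjusted p = 1.0e-04) and EPAS1 (0.19, adjusted p = 2.6e-03) rose, and PAX8 (-0.45, adjusted p = 0.11) did not pass. All 10 markers of squamous epithelium were above 1 CPM, and their summed level was 1571 to 1647 CPM in shRNF26 libraries and 2105 to 2245 CPM in shcontrol libraries. By edgeR 5 of the 10 fell, among them the abundant KRT17 (-0.84), KRT6A (-0.73) and SFN (-0.96), whereas TP63 rose (0.17, adjusted p = 4.4e-03), and KRT5 (0.10), DSC3 (0.25), IVL (0.01) and KRT14 (-0.38) did not pass. Of 6 fibroblast markers, 5 were below 1 CPM, and the other, COL1A1, averaged 85.0 CPM in shRNF26 and 59.7 CPM in shcontrol. The cells are therefore called by their label only, and the part of these marker differences in the results below was not tested.

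The promoters of 4 members are shown because their transcripts moved in opposite directions, with CYCS and ATP5MK lower and NDUFS7 and UQCRC1 higher, and they were chosen after their values were seen. Each sequence is the RefSeq promoter of build GRCh38.p14, 250 bases before to 50 bases after the annotated start, read 5′ to 3′ on the strand of the gene. Capitals mark matches to the letters searched for factors known to act on respiratory genes: GCGCA, any base and GCGC for NRF1, CCGGAAG for the ETS family that includes GABPA, and AAGATGGCG for YY1, each on both strands. The positions are chr7:25125211-25125510 on the minus strand for CYCS, chr10:103396426-103396725 on the minus strand for ATP5MK, chr19:1383657-1383956 on the plus strand for NDUFS7 and chr3:48609597-48609896 on the minus strand for UQCRC1.
CYCS: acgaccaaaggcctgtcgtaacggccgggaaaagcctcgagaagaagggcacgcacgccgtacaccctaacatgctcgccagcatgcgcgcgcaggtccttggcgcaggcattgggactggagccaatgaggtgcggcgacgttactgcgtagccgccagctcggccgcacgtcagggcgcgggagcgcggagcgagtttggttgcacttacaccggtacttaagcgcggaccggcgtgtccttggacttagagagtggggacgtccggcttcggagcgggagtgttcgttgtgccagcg
ATP5MK: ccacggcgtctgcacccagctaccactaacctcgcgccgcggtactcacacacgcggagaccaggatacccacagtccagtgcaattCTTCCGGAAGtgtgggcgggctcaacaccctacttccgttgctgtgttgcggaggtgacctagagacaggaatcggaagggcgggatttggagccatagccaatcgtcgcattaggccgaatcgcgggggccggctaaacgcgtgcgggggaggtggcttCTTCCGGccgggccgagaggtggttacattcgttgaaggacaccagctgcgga
NDUFS7: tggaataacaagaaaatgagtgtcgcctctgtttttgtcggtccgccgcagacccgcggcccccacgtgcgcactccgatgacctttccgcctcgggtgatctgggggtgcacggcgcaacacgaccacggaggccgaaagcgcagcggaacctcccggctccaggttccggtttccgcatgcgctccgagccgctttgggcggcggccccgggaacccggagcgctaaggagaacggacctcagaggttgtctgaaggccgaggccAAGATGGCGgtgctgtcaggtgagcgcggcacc
UQCRC1: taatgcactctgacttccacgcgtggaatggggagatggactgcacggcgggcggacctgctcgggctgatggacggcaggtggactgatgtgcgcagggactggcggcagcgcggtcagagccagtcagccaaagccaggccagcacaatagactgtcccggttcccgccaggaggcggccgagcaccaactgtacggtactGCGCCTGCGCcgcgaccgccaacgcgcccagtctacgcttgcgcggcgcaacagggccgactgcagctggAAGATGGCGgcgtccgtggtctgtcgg
The CYCS window held none of the 3 motifs, which were searched without mismatches, and this does not show that it lacks a binding site. That of ATP5MK held 3 ETS matches, of which 2 overlapped on opposite strands at positions -163 and -160 from the start, with the other at -3. The NDUFS7 window had a YY1 match at position 17, and UQCRC1 had a YY1 match at 23 and an NRF1 match on the opposite strand at -47.

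Over the family as a whole the motifs were common. The RefSeq table held a promoter for 79 of the 100 members. The NRF1 letters lay in 18 of them (22.8%), against 10.8% of the 10765 promoters of tested genes and 5.9% of all 27305 promoters. The ETS letters lay in 22 (27.8%), against 18.4% and 10.5%, and the YY1 letters in 10 (12.7%), against 3.73% and 1.79%. Among the 10 promoters of members that rose, 2 held the NRF1 letters, 1 the ETS letters and 2 the YY1 letters. The 2 with the YY1 letters were those of NDUFS7 and UQCRC1, both printed above. The promoters of NDUFA10, NDUFS8, NDUFV1, UQCRC2, ATP5MC1 and ATP5MC2, which also rose, held none of these motifs. Among the 4 promoters of members that fell, 0 held the NRF1 letters, 1 the ETS letters and 0 the YY1 letters. Among the 58 promoters of tested members that passed the test in neither direction, 14 held the NRF1 letters, 20 the ETS letters and 6 the YY1 letters. Such matches are a description of these windows and do not show binding, and a window without a match is not shown to lack it.

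Most fold changes of respiratory chain transcripts between shRNF26 and shcontrol were small. Of the 88 tested members, 13 rose (14.8%), 5 fell (5.68%) and 70 passed the test in neither direction, by edgeR's quasi-likelihood test at an adjusted p of 0.05. Over all 14766 tested genes, 41.4% passed, 18.9% higher and 22.6% lower, so the share of members that rose was near the background and the share that fell was below it. With scaling by total counts in place of the trimmed mean of M values (TMM), 26 members rose and 1 fell, beside 30.1% and 15.3% of all genes. The median log2 fold change of the members was 0.03, beside 0.01 for all tested genes, and was 0.118 beside 0.099 with total counts. With 1 library left out, the members' median ran from 0.005 without shcontrol replicate 1 to 0.053 without shRNF26 replicate 3. In bulk RNA such as this, less RNA per cell and fewer cells of a type cannot be told apart.

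Fold changes ran from -0.37 for CYCS to 0.28 for ATP5MC2 on the log2 scale. None of the members changed 2-fold or more, against 439 of all tested genes, and only CYCS had an absolute log2 fold change of at least 0.3, against 32% of all tested genes. Of the 88 members, 74 (84.1%) lay within the interquartile range of all genes, -0.193 to 0.195. The median absolute log2 fold change was 0.08 for members and 0.19 for all tested genes, and 86 members had a 95% interval lying wholly within 0.5 of 0. The median SE of the members was 0.064, and a member that did not pass is not shown to be unchanged. The 3 libraries of shRNF26 all lay above those of shcontrol for 13 members (14.8%) and all below for 9 (10.2%), against 24.2% and 25.9% of all tested genes.

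**Figure D1:**
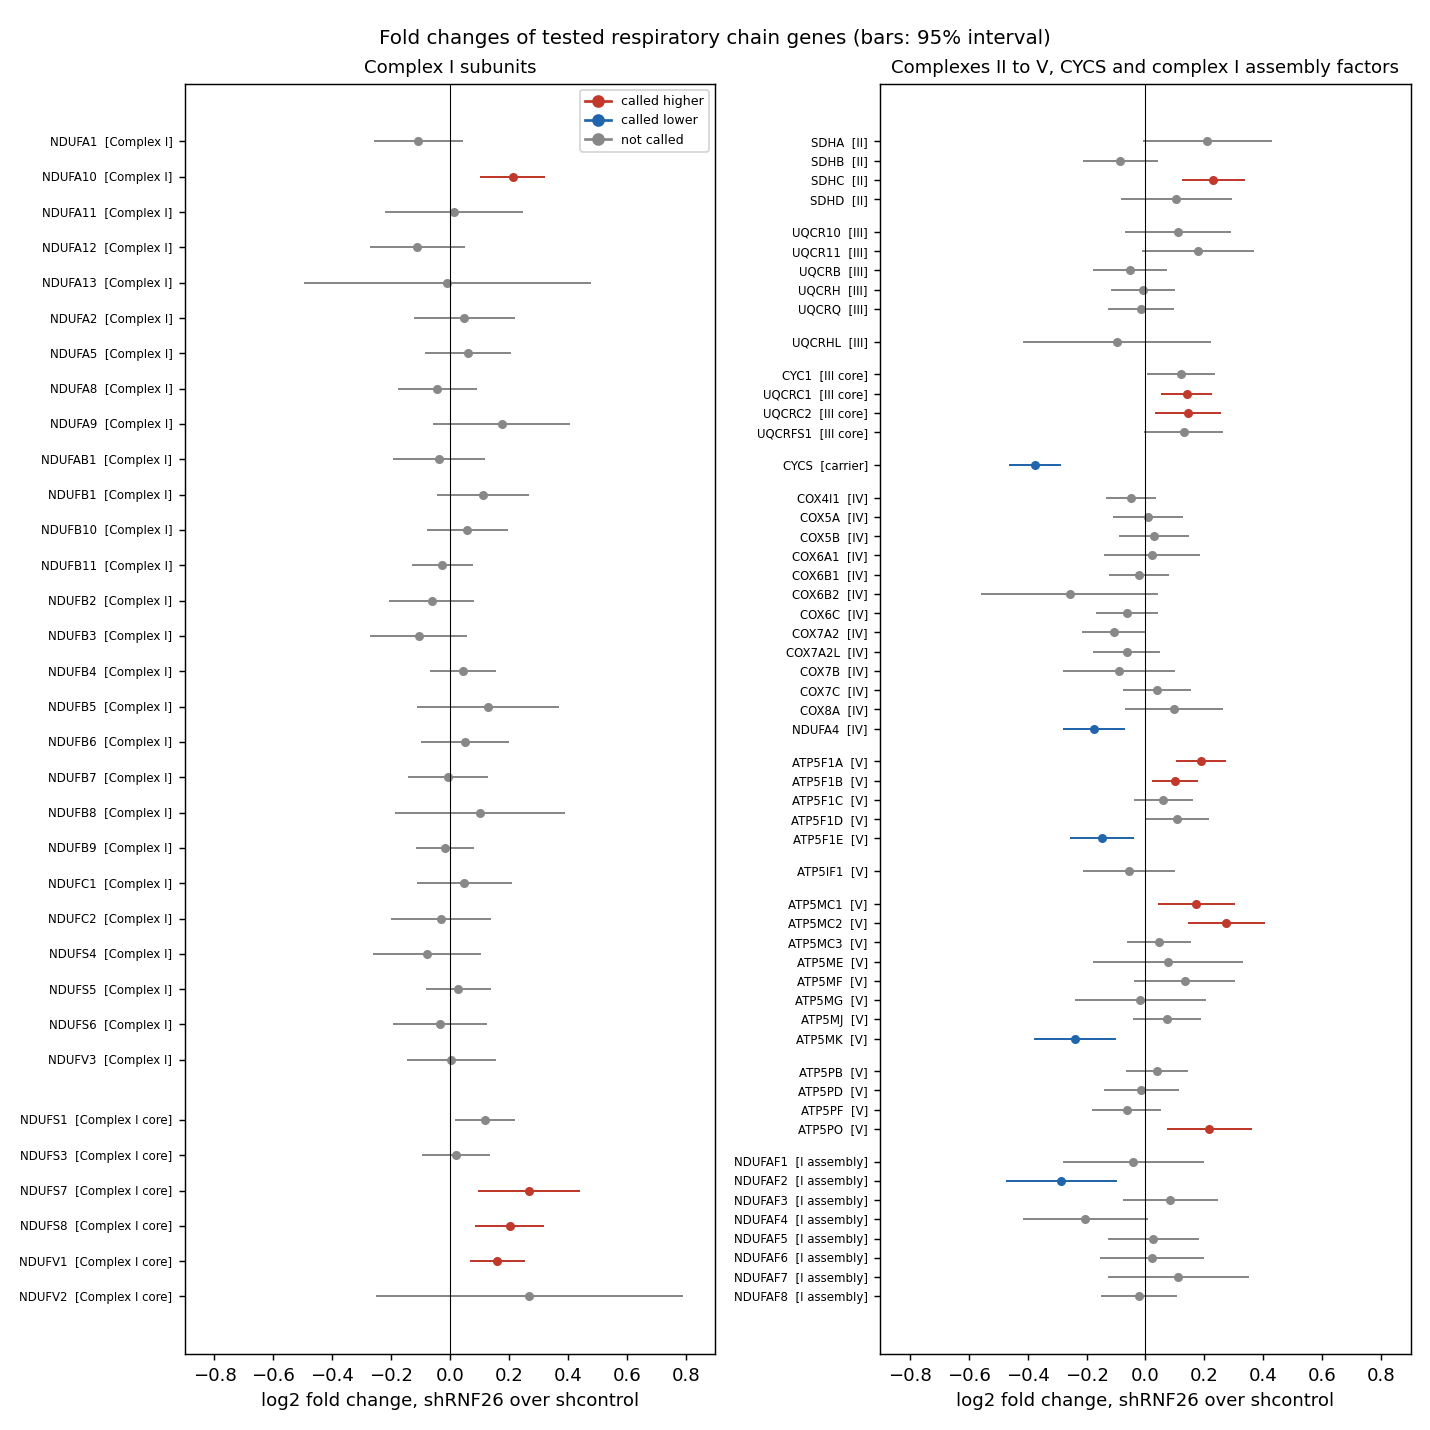
Log2 fold change of tested respiratory chain genes, shRNF26 over shcontrol, with its 95% interval (3 libraries each). Complex I is on the left and the other complexes, CYCS and the complex I assembly factors are on the right; coloured points passed the test, and the points run from -0.37 (CYCS) to 0.28 (ATP5MC2).

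Complex I is the entry point for electrons from NADH, and most of its rises were in core subunits. Of 38 genes 34 were tested; 5 rose (14.7%, against 18.9% of all tested genes), and the median log2 fold change was 0.04. By edgeR 0 fell (against 22.6% of all tested genes), as by DESeq2, limma or an unadjusted edgeR p under 0.05. The lowest value was -0.11 for NDUFA12. The 7 nuclear core subunits held 4 of the 5 rises, with a median of 0.20, and the 27 tested accessory subunits held 1, with a median of 0.00. The split by role was assigned with the values known and the difference between the roles was not tested.

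NDUFS7 and NDUFS8 belong to the arm that hands electrons to ubiquinone. NDUFS7 had 32.2, 33.1 and 31.2 TMM-scaled CPM in shRNF26, against 29.9, 26.3 and 23.8 CPM in shcontrol. Its shcontrol libraries were spread more widely than its shRNF26 libraries but stayed below them, with a log2 fold change of 0.27 (SE 0.081, adjusted p = 0.012 by edgeR). Without shcontrol replicate 3 it no longer passed, at 0.19. NDUFS8 had 107, 112 and 108 CPM in shRNF26, against 104, 89.1 and 92.3 CPM in shcontrol. Every shRNF26 library was above every shcontrol library, and the log2 fold change was 0.20 (SE 0.054, adjusted p = 5.8e-03 by edgeR), falling short of the threshold without shcontrol replicate 2, at 0.156.

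NDUFV1, which binds NADH and the flavin that takes its electrons, had 146, 146 and 142 CPM in shRNF26, against 133, 127 and 129 CPM in shcontrol. The groups were apart, and the log2 fold change of 0.16 (SE 0.043, adjusted p = 5.5e-03 by edgeR) passed under all 16 alternative settings. NDUFS1, the large iron-sulfur subunit beside NDUFV1, averaged 101 ± 3.33 CPM in shRNF26 and 93.3 ± 1.92 CPM in shcontrol (SD, n = 3 each). Its groups did not overlap, but its log2 fold change of 0.12 had an edgeR adjusted p of 0.053; it passed under 4 of 16 alternatives. NDUFS3 was at 0.02 and NDUFV2, with a mean of 35 counts the lowest of the tested members, at 0.27, and neither passed. The value of NDUFV2 is uncertain because 35.6% of the counts on it and its pseudogene lay on the pseudogene row. All 7 core fold changes were above 0 with TMM scaling, with NDUFS3 at -0.004 without shcontrol replicate 2.

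Of the accessory subunits, NDUFA10, which sits on the membrane arm, had 82.2, 79.1 and 79.4 CPM in shRNF26, against 69.9, 70.9 and 66.9 CPM in shcontrol. Its groups were well apart, and the log2 fold change of 0.21 (SE 0.050, adjusted p = 2.3e-03 by edgeR) passed under all 16 alternatives. The other 26 tested accessory subunits passed in neither direction and lay between -0.11 and 0.18. NDUFA3, NDUFA6 and NDUFA7 were below the level tested, and the readthrough gene NDUFC2-KCTD14 had 0 counts in all 6 libraries. NDUFA6 had 2, 0 and 0 counts in shRNF26 and 0 counts in every shcontrol library, which allows up to 3 counts, or 0.166 to 0.18 CPM, in a library. Another annotated gene lies on the strand of NDUFA6 and of NDUFA7, and pseudogene rows held 30% of the summed counts for NDUFA3. Whether reads of these genes were lost to other rows was not tested, so low counts here do not show low expression. Core subunits took 27.1, 26.7 and 27.6% of the complex I counts in shRNF26, against 25.6, 24.8 and 24.7% in shcontrol, with no overlap.

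**Figure D2:**
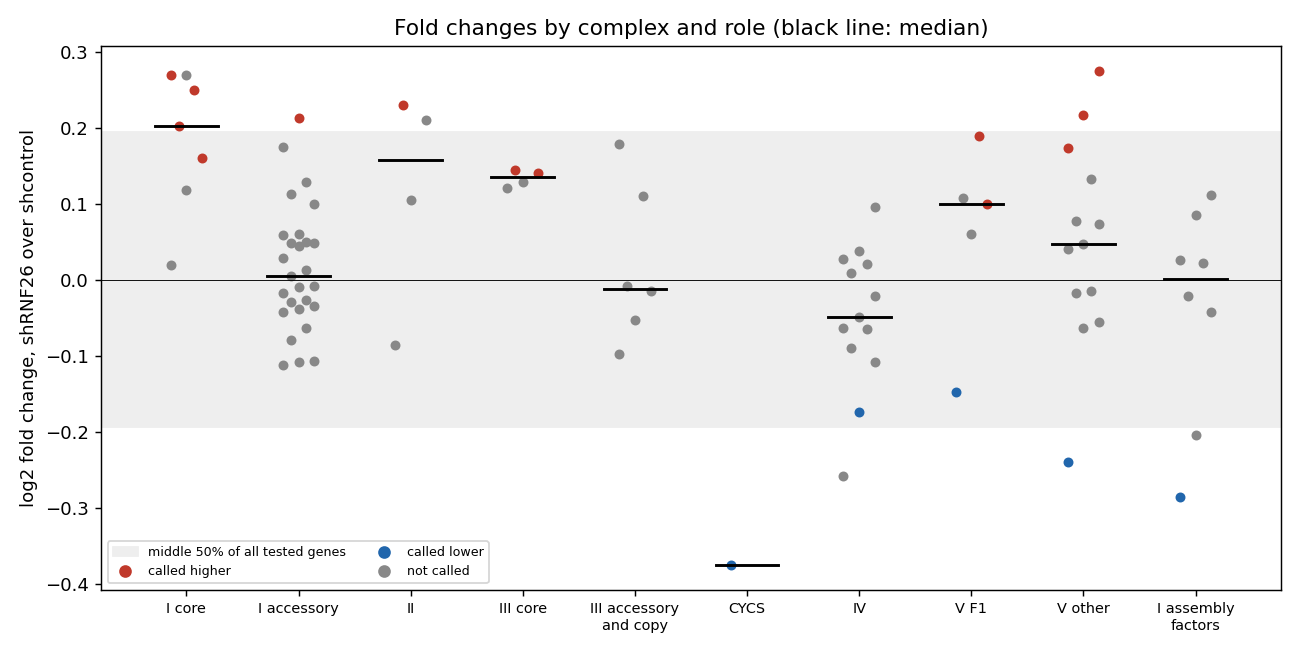
Log2 fold change, shRNF26 over shcontrol, of every tested member by complex and role, with the median of each class as a black line and the interquartile range of all tested genes (-0.193 to 0.195) as a grey band. Core subunits of complexes I and III lie above 0, accessory subunits lie on both sides of it, and CYCS is the lowest point at -0.37.

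Complex II feeds electrons from succinate into the chain and is also an enzyme of the citric acid cycle. It has 4 subunits, all encoded in the nucleus, of which 1 rose (25%, against 18.9% of all tested genes). The median log2 fold change was 0.16. By edgeR 0 fell (against 22.6% of all tested genes), with 0 also by DESeq2, limma or an unadjusted edgeR p under 0.05. SDHC, one of the membrane anchors, had 87.7, 87.4 and 82.3 CPM in shRNF26, against 74.0, 72.9 and 72.6 CPM in shcontrol. The groups were clearly apart, with a log2 fold change of 0.23 (SE 0.050, adjusted p = 1.0e-03 by edgeR). SDHD, the other anchor, had 32.2, 30.04 and 31.0 CPM in shRNF26, against 24.1, 31.2 and 31.4 CPM in shcontrol, where 1 library was low, and its log2 fold change was 0.10 and -0.015 without that library, shcontrol replicate 1.

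SDHA, the flavoprotein, had 14.7, 16.2 and 18.6 CPM in shRNF26, against 13.3, 14.5 and 15.0 CPM in shcontrol. The ranges overlapped, and its log2 fold change of 0.21 had an edgeR adjusted p of 0.11, although it passed with total-count scaling at 0.301 and upper quartile scaling at 0.263. Its value is uncertain because 75.6% of the counts on SDHA and its pseudogenes lay on the pseudogene rows, which had 783, 752 and 763 counts in shRNF26 and 958, 893 and 792 in shcontrol. SDHB, the iron-sulfur subunit, had 48.5, 54.6 and 50.01 CPM in shRNF26, against 52.7, 55.2 and 54.6 CPM in shcontrol. The groups overlapped and its log2 fold change was -0.09, or 0.005 with total-count scaling.

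Complex III takes electrons from ubiquinol to cytochrome c. Of its 10 tested genes 2 rose, a share near that of all tested genes (18.9%), and the median log2 fold change was 0.12. The count of falls was 0 by edgeR (against 22.6% of all tested genes), DESeq2 and limma, and at an unadjusted edgeR p under 0.05. UQCRC1 and UQCRC2 are the large proteins on its matrix side. UQCRC1 had 222, 223 and 231 CPM in shRNF26, against 202, 203 and 208 CPM in shcontrol. The shRNF26 libraries were all higher, with a log2 fold change of 0.14 (SE 0.040, adjusted p = 8.0e-03 by edgeR). UQCRC2 had 98.0, 94.7 and 100.4 CPM in shRNF26, against 85.3, 94.3 and 85.5 CPM in shcontrol. Its groups lay close together without overlap, and the log2 fold change was 0.15 (SE 0.052, adjusted p = 0.031 by edgeR). That call was lost without shcontrol replicate 1 (0.116), shcontrol replicate 3 (0.118), shRNF26 replicate 1 (0.144) or shRNF26 replicate 3 (0.127).

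The electron-carrying subunits of complex III did not pass. CYC1, cytochrome c1, averaged 214 ± 14.4 CPM in shRNF26 and 197 ± 13.8 CPM in shcontrol (SD, n = 3 each), with overlapping groups and a log2 fold change of 0.12 that passed under 6 of 16 alternatives, total-count scaling among them. UQCRFS1, the Rieske iron-sulfur protein, averaged 78.7 ± 4.30 CPM in shRNF26 and 71.9 ± 6.17 CPM in shcontrol, a log2 fold change of 0.13 that passed under 4 of 16 alternatives. The 5 accessory subunits had a median of -0.01, and 0 passed by edgeR, DESeq2, limma or an unadjusted edgeR p under 0.05. Core subunits took 57.5, 58.3 and 58.5% of the complex III counts in shRNF26, against 57.3, 56.2 and 53.7% in shcontrol. These ranges did not overlap, but shcontrol replicate 1 lay close to the shRNF26 libraries.

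For complexes I and III together, 6 of 11 core subunits rose (54.5%), with a median log2 fold change of 0.15. Of their 32 tested accessory subunits 1 rose (3.13%), with a median of 0.00, beside 18.9% of all tested genes. The rises in the core class of complex III were UQCRC1 and UQCRC2, which carry no electrons, while the electron-carrying CYC1 and UQCRFS1 did not pass. GENCODE 29 places 42 of the tested members over a gene on the opposite strand and 29 over a gene on the same strand, but no neighbour over CYCS, UQCRC1, UQCRC2 or NDUFA4. Among members that passed, genes on the opposite strand include HAUS1 over ATP5F1A, CFAP126 over SDHC, TUBB1 over ATP5F1E and TAF5 over ATP5MK. Genes on the same strand include the pseudogene RPL31P51 over ATP5MC2 and a protein-coding gene over ATP5PO. Reads of pairs on either strand cannot be separated with certainty. Without members that share a strand with another gene, or whose pseudogenes hold over 5% of the summed counts, 4 of 6 core subunits rose by edgeR. Of the 21 accessory subunits left, 0 rose by edgeR, with 0 also by DESeq2, limma or an unadjusted p under 0.05. That filter removed NDUFA10, the only accessory subunit that had risen, because the microRNA MIR4786 lies on its strand. It also removed the core subunits NDUFS8 and NDUFV1, which had risen. Under total-count scaling 4 accessory and 9 core subunits rose, beside 30.1% of all tested genes.

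CYCS, cytochrome c itself, carries single electrons between complexes III and IV and also starts caspase activation once released from mitochondria. It had 199, 202 and 194 CPM in shRNF26, against 248, 262 and 262 CPM in shcontrol (3517, 3711 and 3326 counts in shRNF26, 4302, 4285 and 4287 in shcontrol). The groups were far apart relative to their spread, and CYCS fell by 22.9%, a log2 fold change of -0.37 (SE 0.041, 95% interval -0.46 to -0.29, adjusted p = 5.3e-07 by edgeR). It had the largest absolute fold change of the 88 tested members and passed under all 16 alternatives, at -0.404 to -0.284. CYCS has 42 pseudogene rows in the table, which held 2.4% of the summed counts, and these rows had 104, 97 and 105 counts in shRNF26 and 90, 87 and 94 in shcontrol. Within the counts of the cytochrome pair CYCS and CYC1, CYCS made up 48.2 ± 1.17% in shRNF26 and 56.7 ± 2.46% in shcontrol (SD, n = 3 each).

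Complex IV reduces oxygen to water, and its catalytic subunits are encoded by mitochondrial DNA, so all of the nuclear genes counted here are accessory. Of 19 genes 13 were tested, and 1 fell (7.69%, against 22.6% of all tested genes). The count of rises was 0 by edgeR (against 18.9% of all tested genes), DESeq2 and limma, and at an unadjusted edgeR p under 0.05. The median log2 fold change was -0.05, and it turned to 0.042 with total-count scaling and 0.004 with upper quartile scaling. Without shcontrol replicate 3 it was -0.021. NDUFA4, which was named as a complex I subunit and later assigned to complex IV, had 84.4, 87.1 and 87.9 CPM in shRNF26, against 93.7, 97.7 and 101 CPM in shcontrol. The groups did not overlap, and the log2 fold change was -0.17 (SE 0.049, adjusted p = 7.6e-03 by edgeR), but it did not pass with total-count scaling (-0.082) or upper quartile scaling (-0.12). The other 12 tested genes did not pass and lay between -0.26 for COX6B2 and 0.10 for COX8A.

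Complex IV subunits come in isoforms for different tissues, and here the widespread forms carried the counts. COX4I1 had 216, 222 and 216 CPM in shRNF26 and 226, 221 and 231 CPM in shcontrol, whereas the lung and hypoxia form COX4I2 had 0, 0 and 2 counts in shRNF26 and 0 counts in each shcontrol library. COX6A1 had 70.0, 62.3 and 56.8 CPM in shRNF26 and 67.1, 64.1 and 55.1 CPM in shcontrol, whereas the muscle form COX6A2 had 0 counts in all 6 libraries. COX7B had 76.5, 73.2 and 80.9 CPM in shRNF26 and 71.2, 74.4 and 99.9 CPM in shcontrol, and COX8A had 93.5, 86.7 and 74.2 CPM in shRNF26 and 88.0, 79.1 and 70.8 CPM in shcontrol. Their counterparts COX7B2 and COX8C were at 0 counts throughout. All 4 of these widespread forms overlapped between the groups.

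COX7A2 had 88.7, 91.0 and 86.9 CPM in shRNF26, against 92.3, 94.1 and 101 CPM in shcontrol, with no overlap. Its log2 fold change, -0.11 (adjusted p = 0.091 by edgeR), passed only under the alternative without shcontrol replicate 1 (-0.138). COX7A2L, which is known for joining complexes III and IV, had 65.1, 68.2 and 63.4 CPM in shRNF26 and 68.4, 67.9 and 69.4 CPM in shcontrol. The muscle form COX7A1 had 13, 11 and 9 counts in shRNF26 and 9, 14 and 11 in shcontrol. COX6B1 had 112, 112 and 117 CPM in shRNF26 and 116, 110.5 and 120 CPM in shcontrol. Its testis form COX6B2 had 5.31, 5.51 and 5.43 CPM in shRNF26, against 6.22, 6.11 and 7.09 CPM in shcontrol, a difference without overlap that did not pass (log2 fold change -0.26, adjusted p = 0.16 by edgeR). NDUFA4L2, the form of NDUFA4 induced by hypoxia-inducible factors, had 12, 8 and 11 counts in shRNF26 and 18, 12 and 11 in shcontrol, beside 1494, 1598 and 1506 counts of NDUFA4 in shRNF26 and 1625, 1600 and 1655 in shcontrol.

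**Figure D3:**
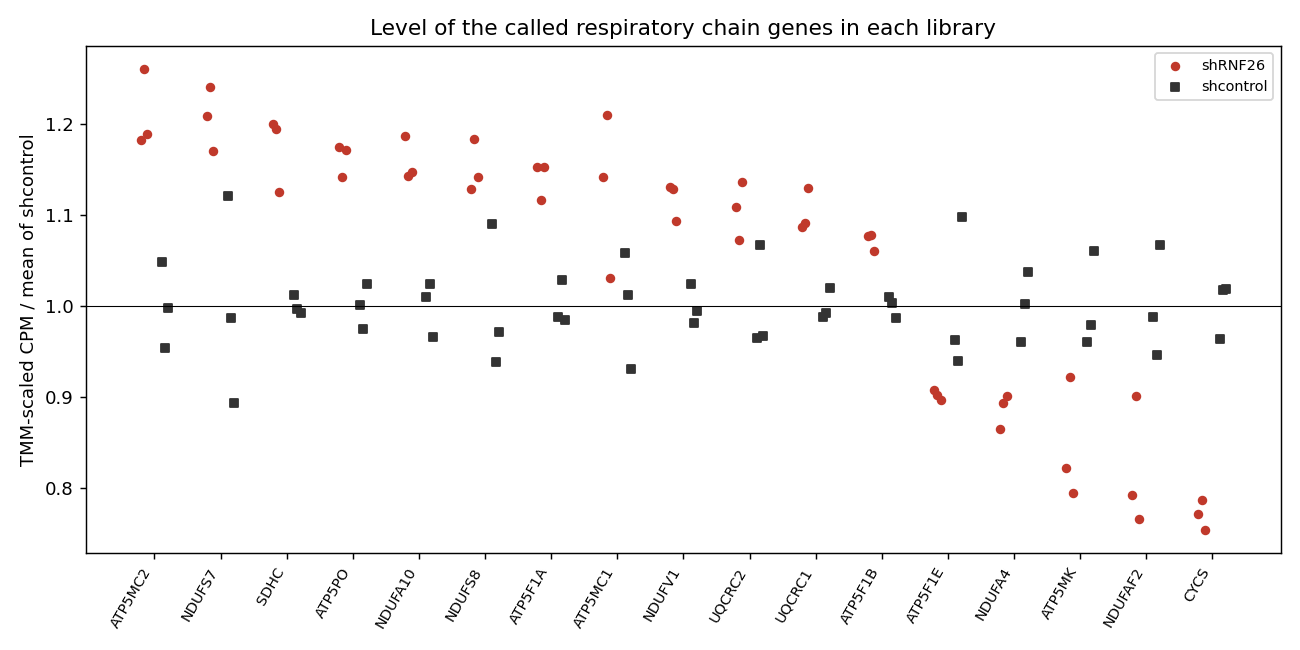
TMM-scaled level of 17 members that passed the test in each library, divided by the mean of the 3 shcontrol libraries, with shRNF26 as red circles and shcontrol as black squares. The groups are separate for 16 of the 17 and overlap for ATP5MC1, and CYCS has the lowest shRNF26 values. These members were chosen for passing the test on the same libraries, so their separation is no further evidence. Of all tested genes, 24.2% had every shRNF26 library above every shcontrol library and 25.9% had every one below.

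Complex V makes ATP, with a catalytic F1 head, stalks, and a ring of c subunits in the membrane. Of its 20 genes 18 were tested; 5 rose (27.8%, against 18.9% of all tested genes) and 2 fell (11.1%, against 22.6%), and the median log2 fold change was 0.07. In the head, ATP5F1A (alpha) had 310.1, 300.6 and 310.3 CPM in shRNF26, against 266, 277 and 265 CPM in shcontrol. The groups were well apart, with a log2 fold change of 0.19 (SE 0.039, adjusted p = 6.3e-04 by edgeR) that passed under all 16 alternatives. ATP5F1B (beta, the catalytic subunit) had 426, 427 and 419.7 CPM in shRNF26, against 399.9, 397 and 391 CPM in shcontrol. The separation was complete but narrow, at a log2 fold change of 0.10 (SE 0.036, adjusted p = 0.032 by edgeR). It did not pass without the filter on low counts (0.1), nor without shcontrol replicate 2 (0.099), shcontrol replicate 3 (0.086), shRNF26 replicate 1 (0.097) or shRNF26 replicate 2 (0.095).

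ATP5F1E (epsilon) went the other way, with 183, 182 and 181 CPM in shRNF26, against 194, 189 and 221 CPM in shcontrol. The shcontrol replicate 3 stood high, and the log2 fold change was -0.15 (SE 0.051, adjusted p = 0.026 by edgeR). The call was lost with total-count scaling (-0.057), with upper quartile scaling (-0.094), and without shcontrol replicate 3 (-0.08), shRNF26 replicate 1 (-0.151), shRNF26 replicate 2 (-0.148) or shRNF26 replicate 3 (-0.142). ATP5F1C (gamma) and ATP5F1D (delta), at 0.06 and 0.11, did not pass.

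The c ring is built from 1 mature protein encoded by 3 genes that differ in their import sequence. ATP5MC1 had 94.4, 99.98 and 85.2 CPM in shRNF26, against 87.5, 83.6 and 76.9 CPM in shcontrol. These groups overlapped, and the log2 fold change was 0.17 (SE 0.061, adjusted p = 0.030 by edgeR), which did not pass without shcontrol replicate 2 (0.179), shcontrol replicate 3 (0.12), shRNF26 replicate 1 (0.165) or shRNF26 replicate 2 (0.119). ATP5MC2 had 48.7, 52.0 and 49.0 CPM in shRNF26, against 43.2, 39.3 and 41.1 CPM in shcontrol. Its groups were far apart, at a log2 fold change of 0.28 (SE 0.061, adjusted p = 1.3e-03 by edgeR), the highest of any tested member, and it passed under all 16 alternatives. ATP5MC3 had 134, 145 and 129.8 CPM in shRNF26 and 132, 126 and 138 CPM in shcontrol, with overlap and a log2 fold change of 0.05. Within the summed c ring counts ATP5MC2 made up 17.9 ± 0.597% in shRNF26 and 16.1 ± 0.330% in shcontrol (SD, n = 3 each).

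Among the other membrane and stalk subunits, ATP5PO, which ties the stalk to the head, had 34.0, 33.0 and 33.9 CPM in shRNF26, against 28.99, 28.2 and 29.6 CPM in shcontrol. The groups were tight and apart, with a log2 fold change of 0.22 (SE 0.067, adjusted p = 0.014 by edgeR), a call lost without shcontrol replicate 2 (0.197) or shRNF26 replicate 1 (0.21). ATP5MK, a small membrane subunit linked to dimers of the synthase, had 47.1, 52.9 and 45.6 CPM in shRNF26, against 55.1, 56.2 and 60.9 CPM in shcontrol. It fell without overlap, by 0.24 on the log2 scale (SE 0.065, adjusted p = 6.0e-03 by edgeR), but did not pass with total-count scaling (-0.149). ATP5IF1, which inhibits the synthase when it would run in reverse, had 50.4, 49.4 and 40.4 CPM in shRNF26 and 49.4, 47.0 and 49.4 CPM in shcontrol, and did not pass. The other stalk and membrane subunits that did not pass lay between -0.06 for ATP5PF and 0.13 for ATP5MF. The copy ATP5MGL and the readthrough gene ATP5MF-PTCD1 were below the level tested.

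The rule by symbol also took in 8 complex I assembly factors, which build the complex without being part of it. Of these 1 fell (12.5%, against 22.6% of all tested genes). It was NDUFAF2, with 18.1, 20.6 and 17.5 CPM in shRNF26, against 22.6, 21.6 and 24.4 CPM in shcontrol. Its groups did not overlap, and its log2 fold change was -0.29 (SE 0.088, adjusted p = 0.014 by edgeR). The call was lost with total-count scaling (-0.194) and without shcontrol replicate 3 (-0.241), shRNF26 replicate 1 (-0.26) or shRNF26 replicate 3 (-0.237). The other 7 lay between -0.20 and 0.11 and did not pass.

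Counted as shares of the summed member counts, which do not depend on library scaling, the complexes kept their order with small shifts. Complex V took 29.5 to 29.8% in shRNF26 and 28.5 to 29.1% in shcontrol, without overlap. Complex III took 14.8 to 15.2% in shRNF26 and 14.3 to 14.7% in shcontrol, without overlap. Complex II took 2.57 to 2.63% in shRNF26 and 2.38 to 2.53% in shcontrol, also without overlap. That separation of complex II is uncertain because its share leaves out the SDHA pseudogene rows. They held 75.6% of the counts on SDHA and its pseudogenes. The pseudogene rows went the other way, with 783, 752 and 763 counts in shRNF26 and 958, 893 and 792 in shcontrol. Complex IV took 18.5 to 19.0% in shRNF26 and 19.2 to 20.0% in shcontrol, and CYCS took 2.78 to 2.82% in shRNF26 and 3.59 to 3.81% in shcontrol, again without overlap. Complex I, with 27.6 to 28.1% in shRNF26 and 27.2 to 27.9% in shcontrol, overlapped. The shares add up to the same whole, so they are not independent of each other, and they were not tested. All members together made up 0.710 to 0.739% of the library in shRNF26 and 0.665 to 0.684% in shcontrol, while their TMM-scaled sums of 6916 to 7175 CPM in shRNF26 and 6876 to 7073 CPM in shcontrol overlapped.

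**Figure D4:**
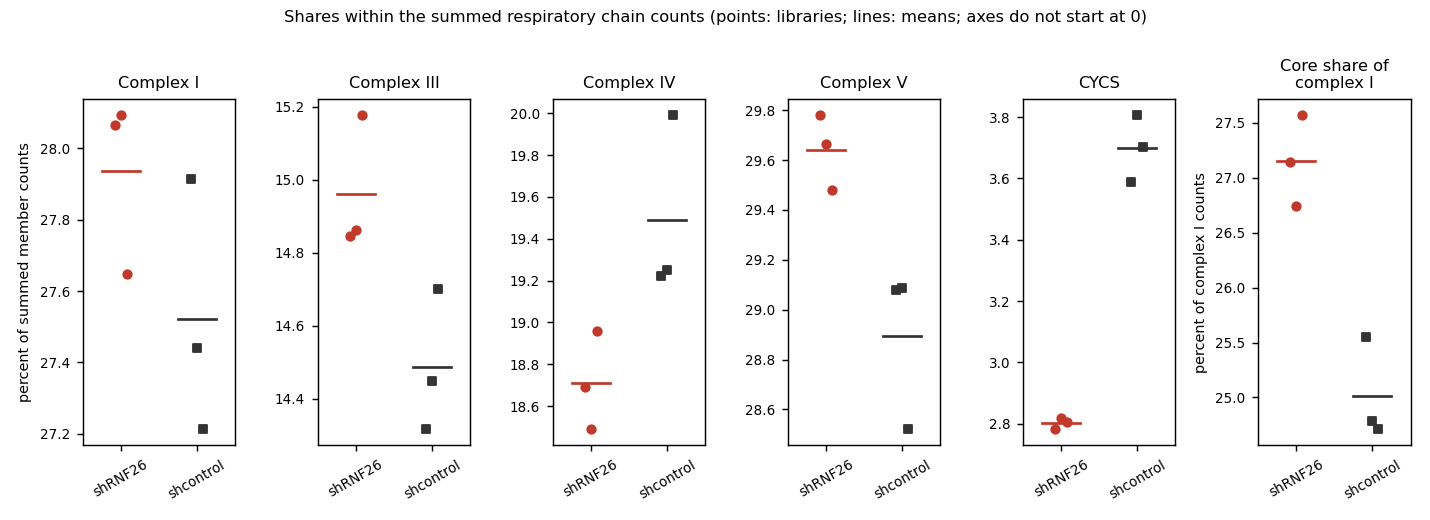
Percent of the summed respiratory chain counts held by complexes I, III, IV and V and by CYCS, and percent of complex I counts held by its core subunits, in each library (points) with group means (lines), shRNF26 on the left. The groups are separate in every panel but that of complex I, and CYCS averages 2.80% in shRNF26 and 3.70% in shcontrol; the axes do not start at 0.

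Per kilobase of gene model, the highest mean levels over the 6 libraries were those of ATP5MF at 318, COX4I1 at 279.7 and COX6C at 254 CPM per kilobase, and the lowest tested were NDUFV2 at 2.18 and UQCRHL at 2.38. ATP5MF has a gene model of only 323 bases and shares its strand with PTCD1, so its level per kilobase is uncertain. UQCRHL is an intronless copy of UQCRH, so reads may be split between the pair. The level of NDUFV2 is uncertain too, because its pseudogene row held 35.6% of the summed counts and another gene lies on its strand. Members have short transcripts, with a median length of 775.5 bases against 2368 for all tested genes. Across the 88 members the Spearman correlation of length with log2 fold change was 0.17, a description over genes of the same libraries.

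Other genes of the pathway came from lists taken from textbook knowledge. The 13 subunits encoded by mitochondrial DNA were listed at 0 counts in all 6 libraries, as were all 37 mitochondrial rows, so the partners of the nuclear subunits were not measured. Of 404 nuclear rows copied from mitochondrial genes, 94 had counts, 101580 in all, and MTATP6P1, a near-intact copy of the ATP6 gene, held 77.3% of them. MTATP6P1 had 848, 777 and 871 CPM in shRNF26, against 630.4, 703 and 726 CPM in shcontrol. It rose by 0.28 on the log2 scale (SE 0.049, adjusted p = 1.67e-04 by edgeR), and whether its reads came from the copy or from mitochondrial RNA cannot be told apart. The other 3 nuclear copies that were tested, MTND2P28 (0.10, adjusted p = 0.28), MTCO1P12 (0.00, adjusted p = 0.97) and MTND4P12 (0.32, adjusted p = 0.22), did not pass by edgeR.

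Of 49 assembly factors of all the complexes, 46 were tested; 9 rose and 5 fell, with a median log2 fold change of 0.03. The share that rose, 19.6%, was near that of all tested genes (18.9%), and the share that fell, 10.9%, was below it (22.6%). The largest called rises by edgeR were SDHAF4 (0.47, adjusted p = 0.040), ECSIT (0.37, adjusted p = 1.5e-03) and NUBPL (0.31, adjusted p = 8.3e-03), of which SDHAF4 acts on complex II and the other two on complex I. The largest called falls by edgeR were UQCC3 (-0.64, adjusted p = 0.023) of complex III, and COA8 (-0.31, adjusted p = 0.011) and COX19 (-0.29, adjusted p = 5.7e-03) of complex IV. SDHAF4 and UQCC3 were near the lowest level tested, with SDHAF4 averaging 4.39 CPM in shRNF26 and 3.15 CPM in shcontrol, and UQCC3 2.05 CPM in shRNF26 and 3.20 CPM in shcontrol. SDHAF4 did not pass under 9 of 15 alternatives, each of the 6 left-out libraries among them (0.43 to 0.524). UQCC3 did not pass by DESeq2 (-0.64) or without shcontrol replicate 2 (-0.578), shRNF26 replicate 2 (-0.629) or shRNF26 replicate 3 (-0.597), and COA8 did not with total-count scaling (-0.222) or without shRNF26 replicate 3 (-0.218).

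Of 13 regulators of respiratory genes, 12 were tested; 1 rose (8.33%, against 18.9% of all tested genes) and 6 fell (50%, against 22.6%), with a median log2 fold change of -0.12. TFB2M, a factor for mitochondrial transcription, had 27.5, 29.7 and 28.9 CPM in shRNF26, against 41.0, 47.1 and 40.8 CPM in shcontrol. Its groups were far apart, with a log2 fold change of -0.58 (SE 0.072, adjusted p = 2.9e-06 by edgeR). GABPB1, the partner of the ETS factor GABPA, had 32.0, 32.4 and 34.3 CPM in shRNF26, against 43.8, 48.8 and 48.3 CPM in shcontrol, a log2 fold change of -0.51 (SE 0.065, adjusted p = 3.9e-06 by edgeR). TFAM, which packages and transcribes mitochondrial DNA, had 88.4, 89.1 and 89.4 CPM in shRNF26, against 106, 117 and 118 CPM in shcontrol, a log2 fold change of -0.35 (SE 0.050, adjusted p = 1.5e-05 by edgeR). In all of these falls no shRNF26 library reached the lowest shcontrol library.

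YY1, PPRC1 and ESRRA also fell, by 0.30, 0.24 and 0.21 on the log2 scale, while LRPPRC, which stabilises mitochondrial messenger RNA, rose by 0.18, with 282, 274 and 287 CPM in shRNF26, against 242, 248 and 255 CPM in shcontrol. These 7 calls passed under all 16 alternatives. NRF1 was at 0.07 and GABPA at 0.13, and neither passed. PPARGC1A, the coactivator of mitochondrial biogenesis, lay below 1 CPM on average. Of 13 enzymes of the citric acid cycle, 2 rose (15.4%, near the 18.9% of all tested genes), with a median log2 fold change of 0.03. Falls numbered 0 by edgeR (against 22.6% of all tested genes), DESeq2, limma or an unadjusted edgeR p under 0.05. Among those that rose was SUCLG2, a subunit of succinate-CoA ligase (0.26, adjusted p = 9.6e-03 by edgeR).

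**Figure D5:**
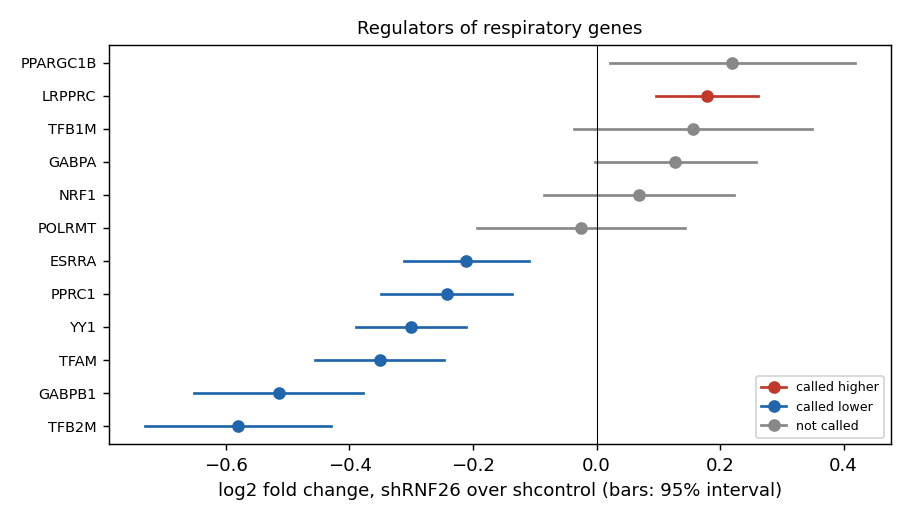
Log2 fold change, shRNF26 over shcontrol, of the 12 tested regulators of respiratory genes with 95% intervals (3 libraries each). TFB2M at -0.58 is the lowest and 6 of the 12 fell (blue), while LRPPRC at 0.18 rose (red).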

How the data were processed

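The authors deposited 1 table of gene counts for the 6 libraries, with Ensembl genes in rows. It is named for FPKM, but its values are whole numbers with unequal totals, so they were treated as raw counts. The submitters' processing notes name hg19 as the build, and no source used here names the aligner, counter, annotation or strand setting. Per the labels' protocols the library kit marks strand. Reads shared with pseudogenes or overlapping genes cannot be assigned with certainty, and 2 blank rows with no gene were left out.

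Symbols came from a gene name table for 61369 IDs and GENCODE 29 for 159. Genes averaging 1 CPM or more across libraries (14766, holding 99.7% of counts) were fitted in 1 two-sided quasi-likelihood test with edgeR 4.0.16 in R 4.3.3, with TMM scaling (factors 1.031 to 1.033 in shRNF26, 0.966 to 0.971 in shcontrol) and Benjamini-Hochberg adjustment over all tested genes, at a threshold of 0.05. Standard errors were derived from the log2 fold change and its F statistic. Replicates varied by a biological coefficient of variation of 0.0507. In these libraries 1 count equals 0.0555 to 0.0599 CPM; where 0 was counted, up to 3 counts remain possible from counting error alone. The test was checked on simulated data. Replicates differed by more than sampling noise and all were kept.

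The members, lists and roles were chosen with earlier results of these data known. Values are given for up to 3 called members with the largest rise and the largest fall in each complex, for isoform pairs, CYCS, the SDH genes and ATP5IF1, and for up to 3 called genes in each direction of a list; further members were named after their values were seen. A few genes that this rule takes in are not reported here by name, but stay in the counts and medians. Alternatives covered scaling, DESeq2 1.42.0, limma 3.58.1, a robust fit, filters, a replicate block and each library left out.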

Additional observations from a re-analysis of the deposited data

How the results depend on the processing

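Of the 18 calls among members, those of NDUFA10, NDUFV1, SDHC, UQCRC1, CYCS, ATP5F1A and ATP5MC2 passed under all 16 alternatives. With total-count scaling, which moves all fold changes up by 0.091, 26 members rose and 1 fell, and the medians were 0.118 for members and 0.127, 0.248, 0.206, 0.042 and 0.158 for complexes I to V. The core and accessory medians of complexes I and III were then 0.236 and 0.089, with 4 accessory rises. Of all tested genes 30.1% rose and 15.3% fell with that scaling. With upper quartile scaling 3 members fell, beside 18.2% of all tested genes. The medians were then 0.081 for members, 0.09 for complex I, 0.211 for II, 0.004 for IV and 0.12 for V. They were 0.199 for core and 0.052 for accessory subunits, with 2 accessory rises, beside 25.3% of all tested genes that rose. Leaving out each library in turn gave 9 to 15 rises and 3 to 7 falls among members. Of all tested genes 14.8 to 17.4% then rose and 18.9 to 21.9% fell. The median then ran from 0.005 (without shcontrol replicate 1) to 0.053 (without shRNF26 replicate 3) for members, from -0.065 to -0.021 (without shcontrol replicate 3) for complex IV, from 0.07 to 0.192 for complex II, from 0.135 to 0.169 for core and from -0.004 to 0.029 for accessory subunits, with 1 to 2 accessory rises and 0 to 1 falls. Without members that share a strand or have abundant pseudogenes, 7 of 58 rose, beside 18.9% of all tested genes, and the median was -0.008. That filter, like the core and accessory split, was chosen after seeing the data. The cause of the remaining moves was not tested.

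Fold changes near 0 changed sign under some settings, among members that did not pass: 25 of 88 with total-count scaling, which moves all genes alike, 17 with upper quartile scaling and 6 to 15 with 1 library left out. Among the members described one by one, those with total-count scaling were SDHB (0.005), COX4I1 (0.042), COX6B1 (0.07), COX7A2L (0.027), COX7B (0.001) and ATP5IF1 (0.036), and with upper quartile scaling COX4I1 (0.004) and COX6B1 (0.032). With 1 library left out, the values ran from -0.015 (without shcontrol replicate 1) to 0.164 for SDHD, from -0.004 (without shcontrol replicate 2) to 0.043 for NDUFS3, from -0.062 (without shcontrol replicate 3; -0.06 without shRNF26 replicate 1) to 0.091 for COX6A1, from -0.053 to 0.001 (without shcontrol replicate 3) for COX6B1, from -0.185 to 0.074 (without shcontrol replicate 3) for COX7B and from -0.112 to 0.04 (without shRNF26 replicate 3) for ATP5IF1.

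Replicate numbers were not taken to pair the samples: deviations of same-numbered libraries correlated at 0.011, -0.027 and 0.093 across all tested genes, and at 0.105, 0.079 and 0.466 across members, where shRNF26 replicate 2 correlated more with shcontrol replicate 1 (0.454). With the replicate block 16 members rose and 5 fell, with a median of 0.028, and 2935 of all genes rose and 3479 fell. At this depth tested members averaged 35 (NDUFV2) to 7067 (ATP5F1B) counts, and the isoforms with counts near 0 could not be compared.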
